A study of Mus musculus with 30 samples.

Results

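The collagen gene family was described in 30 mammary tumours of the mouse. Members were all genes whose RefSeq transcript in the deposited table carries a symbol made of Col, a number, the letter a and a number, and 42 of the 20842 genes named in the table met that rule. For the 5 members with more than 1 transcript, the row with the highest mean was taken. Col6a3 and Col12a1 were not analysed here. Of the 42 members, 31 averaged 1 RPKM or more and were tested, and the other 11 are given by their levels only. RPKM is the number of reads per kilobase of transcript and per 1 M reads, which allows a rough comparison of different genes. That comparison rests on the length of the 1 transcript row used per gene, and the unit itself was inferred.

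Collagens are secreted proteins in which chains wind around each other into a triple helix. Fibrillar collagens, with types I and III in the lead, assemble into the banded fibres of connective tissue and are made mostly by fibroblasts. Type IV collagen builds the sheet-like network of basement membranes under epithelium and around blood vessels and fat cells. The FACIT collagens sit on the surface of fibrils, the type VI chains form beaded filaments, and several other members are anchored in cell membranes or form short-chain networks. In mammary tumours the fibrous stroma and the basement membrane are the main collagen-rich structures.

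All tumours were induced by the polyoma middle T antigen (PyMT), a viral oncogene used as a transgene in mouse models of breast cancer. Each tumour came from a separate animal of a backcross in which offspring of MOLF, a wild-derived strain, and PyMT mice were mated again to FVB. The labels put the 30 tumours in 1 group and give no age, stage, treatment, transgene promoter or genotype at individual loci. The comparisons are therefore relations across tumours, n = 30 unless stated, with animals named by the numbers in their labels. RNA came from whole tissue with poly-A selection and 1 library per animal, so the p-values cover differences between animals together with those of library preparation.

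The spacing of low values gave a depth of 116.8 to 196.5 M reads in 14 deep libraries and 42.6 to 61.9 M reads in 16 shallow ones. The labels name no such split. Mean insert size, from the labels, was 233 ± 14.7 bases in the deep libraries and 261 ± 12.3 bases in the shallow ones (SD, n = 14 and 16). The summed RPKM of 8 luminal epithelial markers, such as the keratins Krt8 and Krt18, was between 1530 and 3300 in every tumour. Animal 4036 stood apart from the rest: it had the highest fibroblast score, at 2.99 SD, the highest adipocyte score, at 2.56 SD, and the lowest luminal score, at -2.70 SD from the mean of the tumours.

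The 3 fibrillar genes Col1a1, Col3a1 and Col1a2 had the highest levels of the family. Col1a1, which encodes the major chain of type I collagen, averaged 374 ± 273 RPKM (SD, n = 30), with a lowest value of 80.6 in animal 4438, a median of 332 and a highest value of 1718 in animal 4036. Col3a1, the only chain of type III collagen, averaged 304 ± 305 RPKM and ran between 48.8 in animal 4150 and 1797 in animal 4036, with a median of 232. Col1a2, the minor chain of type I collagen, averaged 232 ± 180 RPKM, with a lowest value of 47.6, a median of 207 and a highest value of 1121. Animal 4036 lay far above the other 29 tumours for each of these genes, since the second highest values were 497 RPKM for Col1a1, 592 for Col3a1 and 315 for Col1a2. Without that animal the means were 328 ± 103 RPKM for Col1a1, 252 ± 118 for Col3a1 and 201 ± 66.5 for Col1a2 (SD, n = 29).

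The remaining fibrillar chains were lower. Col5a2 and Col5a1, chains of the type V collagen that is built into type I fibrils, averaged 40.6 ± 25.1 and 18.4 ± 13.2 RPKM, and Col5a3 averaged 9.63 ± 8.90 RPKM. Col11a1 and Col11a2, chains of the cartilage collagen XI, averaged 26.5 ± 16.2 and 15.04 ± 5.69 RPKM. Col27a1, a fibrillar collagen known from cartilage, averaged 4.59 ± 2.31 RPKM. Col2a1, the main fibrillar collagen of cartilage, had a median of only 2.65 RPKM and reached 21.03 RPKM in animal 4020. Col24a1 averaged 0.267 ± 0.12 RPKM and was the lowest of the 11 fibrillar genes.

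The second tier of the family was made up largely of FACIT collagens. Col9a1, a chain of type IX collagen, averaged 117 ± 37.5 RPKM, with a lowest value of 47.9 in animal 4357, a median of 119 and a highest value of 189 in animal 4547. Col16a1, which encodes a FACIT collagen of connective tissue and basement membrane zones, averaged 93.2 ± 31.6 RPKM, between 42.4 and 160 with a median of 83.7. Col9a2 averaged 79.4 ± 32.3 RPKM, with a lowest value of 27.98, a median of 72.6 and a highest value of 181, and the third chain of the type, Col9a3, averaged 63.0 ± 16.3 RPKM. These 4 genes held ranks 4, 5, 6 and 8 in the family, and each varied less than 7-fold between its lowest and its highest tumour, against 21.3-fold for Col1a1 and 36.9-fold for Col3a1. In animal 4036 Col9a1 had 79.3 RPKM and Col16a1 had 81.5 RPKM, both below the median of the 30 tumours. Col9a2, with 119.6 RPKM, and Col9a3, with 70.85 RPKM, lay above their medians there, which were 72.6 and 59.9 RPKM. Col14a1, a FACIT collagen on type I fibrils, averaged 11.8 ± 8.55 RPKM and was highest in animal 4036, at 48.1 RPKM. Col20a1, Col19a1 and Col22a1 averaged 1.14, 0.761 and 0.118 RPKM.

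Type IX and type XI collagen and Col2a1 are best known from cartilage, so cartilage and bone markers were read in the same libraries. The proteoglycan gene Acan averaged 3.58 ± 2.95 RPKM, the matrilins Matn1 and Matn3 0.347 ± 0.193 and 0.904 ± 0.376 RPKM, and Hapln1, a link protein, 0.0324 ± 0.0453 RPKM with a lowest value of 0. The matrix proteins Comp and Chad averaged 6.67 ± 3.02 and 8.51 ± 6.94 RPKM. The transcription factor Sox9, which is also made in mammary epithelium, averaged 24.3 ± 6.98 RPKM. Col9a1, Col9a2 and Col9a3 together had between 127 and 434 RPKM, while the summed level of the 9 cartilage and bone markers was between 25 and 81.3 RPKM.

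Among the type IV genes of the basement membrane, Col4a1 averaged 70.6 ± 25.8 RPKM, with a lowest value of 16.2 in animal 4150, a median of 73.3 and a highest value of 154 in animal 4036. Col4a2, its usual partner in the network, averaged 44.0 ± 15.9 RPKM, between 8.92 and 90.8 with a median of 44.6. Col4a5, which with Col4a6 forms the network of epithelial and smooth muscle basement membranes, averaged 41.4 ± 10.1 RPKM, between 26.1 and 64.9 with a median of 38.4. Col4a5 had the narrowest range of the tested type IV genes, 2.49-fold between the lowest and the highest tumour, against 9.49-fold for Col4a1. Col4a6 averaged 20.9 ± 6.54 RPKM. Col4a3 and Col4a4, the chains of kidney and lung basement membranes, averaged 0.248 and 0.424 RPKM.

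Of the beaded-filament genes, Col6a1 averaged 52.3 ± 30.5 RPKM, with a lowest value of 15.4, a median of 48.7 and a highest value of 197. Col6a2 averaged 49.96 ± 29.8 RPKM, between 13.1 and 189 with a median of 45.1, and both genes were lowest in animal 4438 and highest in animal 4036. Col6a6 averaged 0.394 ± 0.446 RPKM, with a lowest value of 0.053, a median of 0.271 and a highest value of 2.52, again in animal 4036. The second highest value of Col6a6 was 0.797 RPKM. Col6a5 and Col6a4 averaged 0.185 and 0.0411 RPKM.

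The multiplexins Col15a1 and Col18a1, which carry sugar chains and lie at basement membranes, averaged 20.9 ± 10.6 and 15.1 ± 7.62 RPKM. Col15a1 was lowest in animal 4150, at 2.87 RPKM, had a median of 20.6 and was highest in animal 4036, at 61.2. Col18a1, the source of endostatin, ran between 6.65 and 47.5 RPKM with a median of 13.9. Col7a1, the anchoring fibril collagen that ties epithelial basement membrane to the stroma, averaged 15.8 ± 5.59 RPKM, between 7.604 and 28.1 with a median of 15.8.

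Col8a1 and Col8a2, short-chain collagens of vessel walls and other sheets, averaged 7.83 ± 3.20 and 3.54 ± 1.39 RPKM. Their lowest values were 1.98 RPKM in animal 4150 and 0.891 RPKM in animal 4438, their medians were 7.64 and 3.53 RPKM, and their highest values, 13.5 and 7.42 RPKM, were both in animal 3427. Col10a1, the collagen of hypertrophic cartilage, averaged 1.29 ± 1.02 RPKM, with a lowest value of 0.172, a median of 0.972 and a highest value of 5.46 RPKM in animal 4262.

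Of the transmembrane collagens, Col17a1, the hemidesmosome collagen of basal epithelial cells, averaged 7.28 ± 3.08 RPKM, between 3.75 and 16.2 with a median of 6.09. Col23a1 averaged 3.65 ± 1.45 RPKM, between 1.86 and 6.56 with a median of 3.27. Col25a1, known from brain and muscle innervation, averaged 2.73 ± 3.06 RPKM, with a lowest value of 0.326, a median of 1.75 and a highest value of 15.2 in animal 4461. Col13a1 averaged 0.880 RPKM. Outside these classes, Col28a1 averaged 0.509 ± 0.339 RPKM, between 0.105 and 1.73 with a median of 0.427. Col26a1 averaged 0.426 ± 0.481 RPKM, between 0.052 and 2.5 with a median of 0.265.

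**Figure D1:**
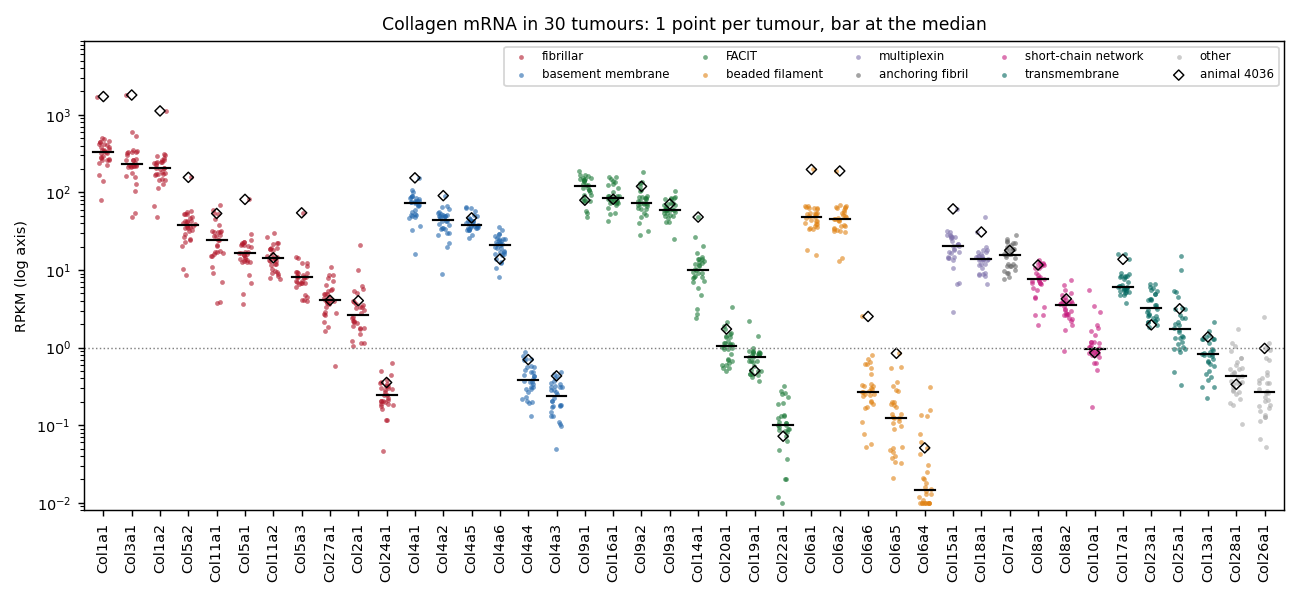
Level of each of the 42 collagen genes (x axis, grouped by class) in RPKM on a log axis, with 1 point per tumour, a bar at the median and a diamond for animal 4036; values under 0.01 are drawn at 0.01 and the dotted line marks 1 RPKM. Animal 4036 lies above all other tumours for Col1a1, Col3a1, Col1a2, Col6a1 and Col6a2, and near or below the median for Col9a1 and Col16a1. For Col9a2 and Col9a3 it lies above the median.

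Fibrillar genes together made up 55.2 ± 8.88% of the summed collagen RPKM (SD, n = 30), between 35.02% in animal 4438 and 80.1% in animal 4036. FACIT genes made up 23.4 ± 7.76%, with the lowest share, 6.42%, in animal 4036 and the highest, 45.6%, in animal 4150. Type IV genes made up 10.8 ± 2.30% and beaded-filament genes 5.76 ± 0.906%. Collagen IX alone was 16.5 ± 5.54% of the family sum. The sum over all 42 genes was lowest in animal 4438, at 617 RPKM, had a median of 1592 RPKM and was highest in animal 4036, at 6250 RPKM. Shares within a sum depend on each other, so a high fibrillar share lowers the others.

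**Figure D2:**
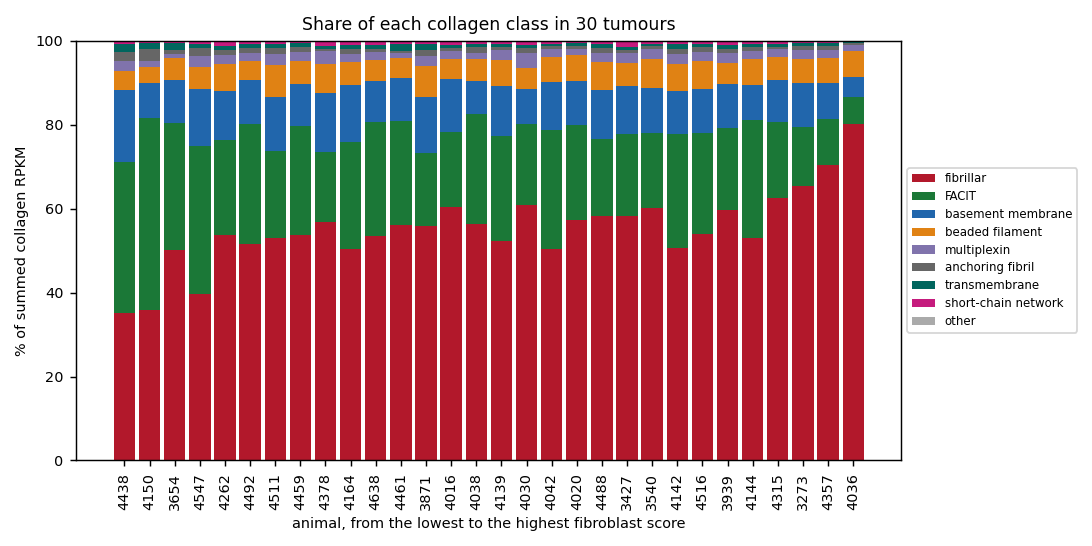
Share of the summed RPKM of 42 collagen genes taken by each class (y axis, %) in each of 30 tumours, ordered on the x axis from the lowest to the highest fibroblast marker score. The fibrillar share was 35.02% in animal 4438, at the left end, and 80.1% in animal 4036, at the right end.

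Chains that assemble into the same molecule were compared by the ratio of their RPKM in each tumour. Col4a1 and Col4a2 kept the most even ratio of the 4 pairs taken by rule: it averaged 1.61 ± 0.0870 (SD, n = 30), with a lowest value of 1.47, a median of 1.60 and a highest of 1.82. On the log2 scale the ratio had an SD of 0.08, while the genes themselves had SDs of 0.60 and 0.63. The ratio of Col6a1 to Col6a2 averaged 1.06 ± 0.0824, between 0.881 and 1.25, with an SD of 0.11 on the log2 scale. The ratio of Col1a1 to Col1a2 averaged 1.65 ± 0.196, between 1.33 and 2.12, and Col1a1 had the higher level in 30 of 30 tumours. The ratio of Col5a1 to Col5a2 averaged 0.449 ± 0.0712, between 0.285 and 0.560. In animal 4036 these pairs did not leave the range of the other tumours, so the lowest and highest ratios without it were as given.

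Other pairs, chosen after their values were seen, moved apart from tumour to tumour. The ratio of Col4a5 to Col4a6 ran between 1.15 in animal 3654 and 4.49 in animal 4511, with an SD of 0.42 on the log2 scale, beside SDs of 0.33 for Col4a5 and 0.49 for Col4a6. The ratio of Col4a1 to Col4a5 ran between 0.472 in animal 4150 and 3.28 in animal 4036. Within type IX collagen, the ratio of Col9a1 to Col9a2 ran between 0.663 in animal 4036 and 3.58 in animal 4378, with an SD of 0.57 on the log2 scale. Col9a1 was higher than Col9a2 in 26 of 30 tumours and higher than Col9a3 in 28 of 30. The ratio of Col11a1 to Col11a2 had the widest spread of the 13 ratios computed, between 0.176 and 5.45, with an SD of 1.13 on the log2 scale.

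The type IV pairs Col4a1 with Col4a2 and Col4a5 with Col4a6 are arranged head to head. In RefSeq promoter windows of GRCm38.p6, each holding 250 bases before and 50 after an annotated start, the windows of Col4a1 and Col4a2 share 78 bases, and the genes run in opposite directions from starts so close that the first 22 bases of the transcripts overlap on opposite strands. That stretch lies at chr8:11312805-11312826 and is shown on the plus strand, the coding strand of Col4a2, with the GC box GGGCGG in capitals:

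Col4a1 and Col4a2: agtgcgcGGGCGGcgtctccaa

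Col4a5 and Col4a6 also run in opposite directions, from starts separated by 1342 bases on chromosome X. The bases before these starts are shown because this pair had the more variable ratio. Each line gives 130 bases before the start in the direction of the gene, at chrX:141475289-141475418 on the plus strand for Col4a5 and chrX:141474077-141474206 on the minus strand for Col4a6, with GGGCGG or its reverse complement in capitals.

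Col4a5: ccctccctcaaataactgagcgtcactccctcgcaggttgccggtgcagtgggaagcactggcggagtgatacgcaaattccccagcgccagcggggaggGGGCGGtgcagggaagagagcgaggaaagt
Col4a6: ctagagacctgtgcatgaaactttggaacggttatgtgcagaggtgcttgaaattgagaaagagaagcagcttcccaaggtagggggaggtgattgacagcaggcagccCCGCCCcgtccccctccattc

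**Figure D3:**
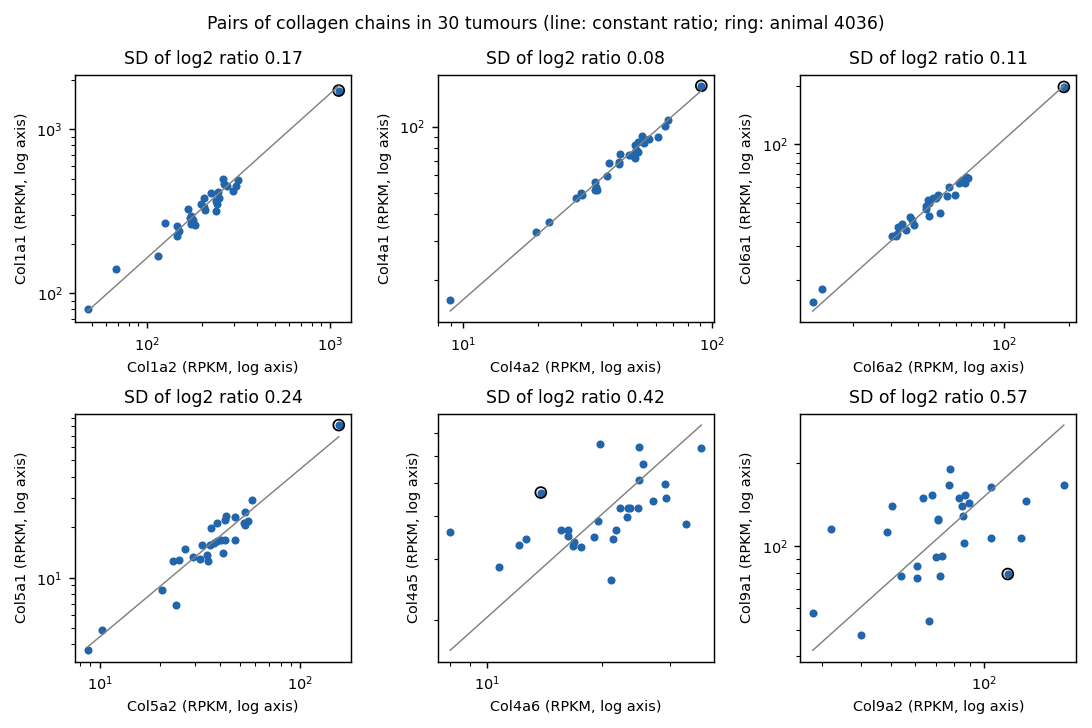
Level of both chains of 6 collagen pairs in RPKM on log axes, 1 point per tumour (n = 30), with a line at the mean log ratio and a ring around animal 4036. The points of Col4a1 and Col4a2 lie on the line, with an SD of the log2 ratio of 0.08, and those of Col9a1 and Col9a2 scatter, with an SD of 0.57.

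To see which collagens went with the amount of fibroblast RNA, each gene was regressed on a score of 16 fibroblast markers that are not collagens, among them the small proteoglycans Dcn and Lum and the matrix protein Postn. Slopes are changes in log2(RPKM + 1) per SD of the score, and adjusted p-values are Benjamini-Hochberg values over all tested genes from limma. Of the 31 tested collagens 16 rose with the score and 0 fell, against 8.99% of all 13598 tested genes that rose and 7.78% that fell. At an unadjusted p under 0.05 the collagen counts were the same, 16 and 0. For unadjusted counts, here and below, the share of all tested genes is not given, so they cannot be set against a background. The median slope was 0.24 over the collagens and -0.02 over all tested genes. In bulk tissue fewer cells of a type and less RNA per cell cannot be told apart. The score was lowest in animal 4438, at -2.45 SD, and the summed level of its markers ran between 161 and 1550 RPKM. Animal 4036 also had the highest adipocyte and macrophage scores, at 2.56 and 2.13 SD. Its score on pericyte and smooth muscle markers, called the pericyte score here, was highest too, at 2.07 SD. Animal 3871 came close, at 2.02 SD, with a basal epithelial score (described below) of 1.66 SD. The smooth muscle genes Acta2 and Myh11 were highest in animal 3871, at 177.8 and 26.15 RPKM, and Pdgfrb in animal 4036, at 20.92 RPKM. Which cells these genes came from was not tested. The 3 animals with the lowest fibroblast scores, 4438, 4150 and 3654, had macrophage scores of -2.07, -1.98 and -2.01 SD, the lowest of the 30, and pericyte scores of -1.37, -2.22 and -1.07 SD. Animal 4547 came next, with a fibroblast score of -1.234 SD, beside -1.245 SD in animal 3654. Its macrophage score was high, at 0.908 SD, and its pericyte score was -0.115 SD. The summed level ran between 171 and 491 RPKM for the 9 macrophage markers, all of which entered the score, and between 77.3 and 392 RPKM for the 10 pericyte and smooth muscle markers, which all entered too. The part of these cells in the slopes was not tested.

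The genes that rose were 7 of 10 tested fibrillar genes, 2 of 4 type IV genes, 2 of 2 multiplexins, 2 of 2 beaded-filament genes, 2 of 3 short-chain genes and 1 of 6 FACIT genes. Col3a1 had the steepest slope, 0.90 ± 0.05 (SE, adjusted p = 3.41e-13), which is 1.87-fold per SD of the score on the RPKM + 1 scale. Col14a1 followed with 0.73 ± 0.06 (adjusted p = 2.5e-10) and Col1a2 with 0.69 ± 0.06 (adjusted p = 8.79e-10). Without animal 4036 these slopes were 0.73 for Col3a1, 0.62 for Col14a1 and 0.52 for Col1a2, with adjusted p of 2.89e-10, 4.73e-08 and 4.46e-07. Leaving out any other animal in turn, and this one, kept the count between 15 and 16.

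Col5a1 and Col5a2 had slopes of 0.66 and 0.64, Col1a1 had 0.62, and Col15a1, Col6a2, Col5a3, Col11a1 and Col6a1 lay between 0.54 and 0.59. Col8a1 had a slope of 0.43, and both type IV chains of the shared start, Col4a1 and Col4a2, had 0.38. Col18a1 and Col8a2 had the smallest slopes that passed the test, 0.32 ± 0.07 (adjusted p = 0.00333) and 0.24 ± 0.07 (adjusted p = 0.0156).

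A group of 15 collagens did not pass the test, and it held several of the most abundant members. Col9a1 had a slope of -0.01, with a 95% interval between -0.20 and 0.18, and Col16a1 had -0.01, between -0.18 and 0.16. Col9a3 had 0.01, between -0.13 and 0.16, and Col9a2 had 0.17, between -0.03 and 0.37. Col4a5 had 0.10, between -0.02 and 0.21, and Col4a6 had 0.11, between -0.05 and 0.28. The upper ends of these 6 intervals lay below the interval of Col1a1, which ran between 0.48 and 0.75. The other genes of the group were Col27a1, Col25a1, Col17a1, Col2a1, Col7a1, Col20a1, Col11a2, Col23a1 and Col10a1. The 15 genes together had between 300.1 RPKM in animal 4438 and 695 RPKM in animal 4144, while the 16 that rose had between 313 RPKM in animal 4438 and 5768 RPKM in animal 4036. That split rests on the test itself and is given as a description.

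**Figure D4:**
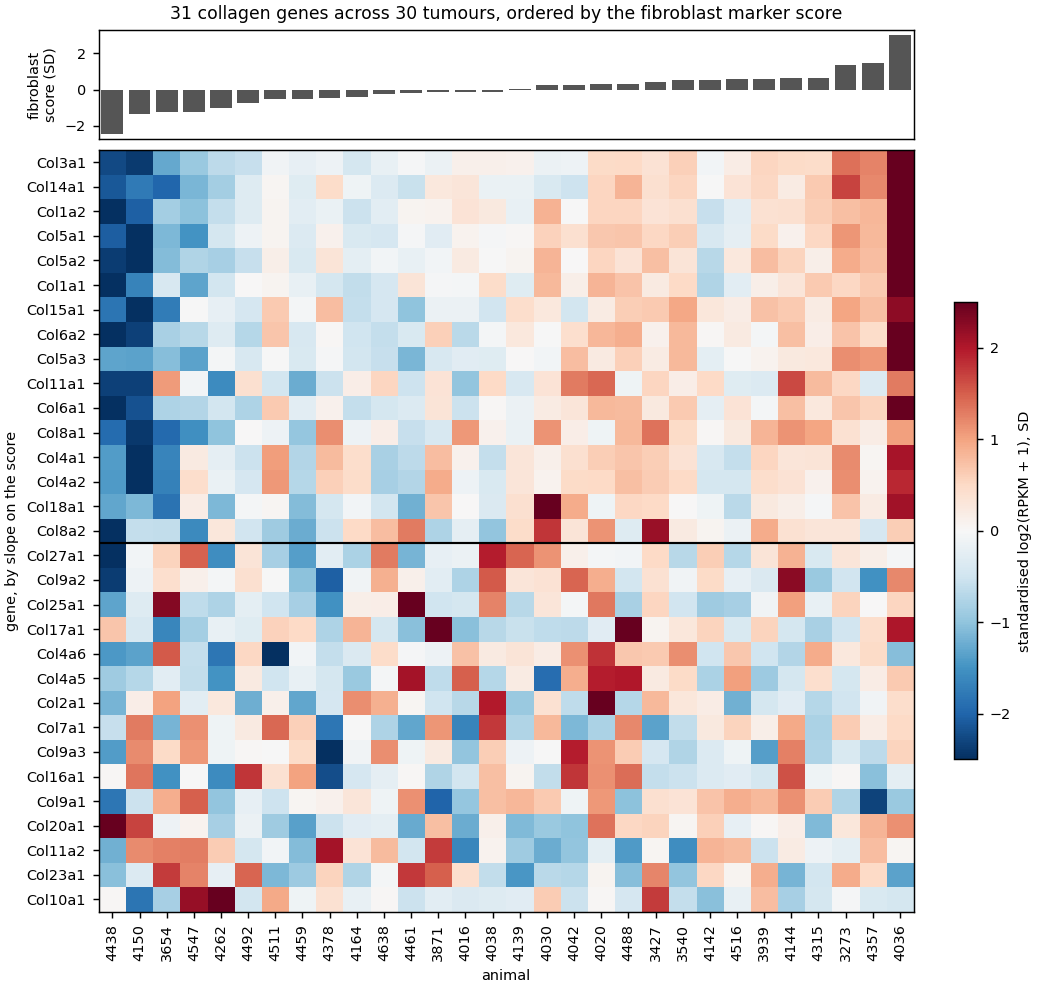
Standardised log2(RPKM + 1) of the 31 tested collagen genes (rows, by slope) in 30 tumours (columns, by fibroblast score, shown as bars in SD on top); red is above and blue below the gene's mean, and colours stop at 2.5 SD. Above the black line are the 16 genes that rose with the score, mostly blue on the left and red on the right. Below it are the 15 that did not pass the test, with slopes between 0.17 for Col27a1 and -0.08 for Col10a1. Rows are sorted by slope on the score that orders the columns, so the contrast across the line follows from the sorting.

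The difference in slope from Col1a1 was tested for each gene directly. Among the other 30 tested collagens, 19 had a lower slope than Col1a1 and 1 a higher one, against 97% of all tested genes that were lower and 0.0368% that were higher. Col3a1 was the steeper gene, by 0.28 ± 0.07 (SE, adjusted p = 0.000438). The largest differences in the other direction were -0.70 ± 0.10 for Col10a1 (adjusted p = 5.17e-08), -0.67 ± 0.10 for Col23a1 (adjusted p = 1.27e-07) and -0.67 ± 0.12 for Col11a2 (adjusted p = 9.93e-07). All 4 tested type IV genes were among those with a lower slope, Col4a1 by -0.23 ± 0.09 (adjusted p = 0.0142) and Col4a5 by -0.52 ± 0.08 (adjusted p = 1.24e-07). Of the 6 FACIT genes 5 were lower too, the exception being Col14a1. With 97% of all tested genes lower than Col1a1, these counts do not set type IV or FACIT genes apart from other genes. Of the 30 collagens as a whole 63.3% were lower. The number of genes that differed depends on how many low genes enter: it was 13 with a minimum mean of 5 RPKM and 31 with no minimum.

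**Figure D5:**
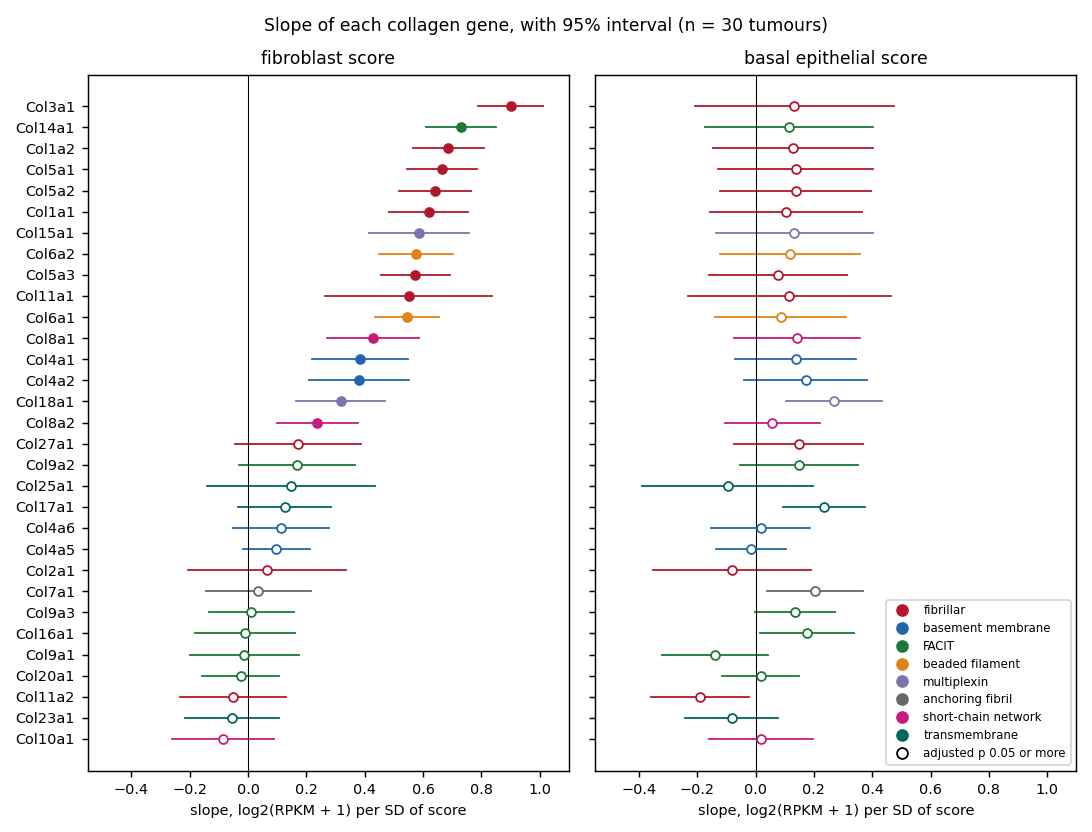
Slope of each of the 31 tested collagen genes in log2(RPKM + 1) per SD of the fibroblast score (left) and of the basal epithelial score (right), with 95% intervals, coloured by class; open circles did not pass an adjusted p of 0.05. The left panel falls between 0.90 for Col3a1 and -0.08 for Col10a1, and on the right no gene passed.

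Promoter windows from RefSeq (GRCm38.p6) were available for 34 of the 42 members, not for Col1a1. The bases before the start are shown for 2 genes that rose steeply with the fibroblast score and 2 abundant genes that did not pass that test, so that both kinds can be read side by side. Each line holds 130 bases on the plus strand in the direction of the gene, at chr6:4505488-4505617 for Col1a2, chr1:45311408-45311537 for Col3a1, chr4:121039436-121039565 for Col9a2 and chr4:130047710-130047839 for Col16a1. Capitals mark matches on either strand to 3 motifs: the CCAAT box, the GC box searched as GGGCGG, and the TATA box searched as TATAAA. No matches overlap in these lines. The TATAAA of Col3a1 lies near the beginning of its line, far from the annotated start, and whether it acts as a TATA box was not tested.

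Col1a2: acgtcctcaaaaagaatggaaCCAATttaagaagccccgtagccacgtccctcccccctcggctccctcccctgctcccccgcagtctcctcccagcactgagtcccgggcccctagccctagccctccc
Col3a1: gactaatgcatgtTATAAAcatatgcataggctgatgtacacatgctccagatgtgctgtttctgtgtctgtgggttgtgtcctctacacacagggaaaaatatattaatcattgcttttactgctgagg
Col9a2: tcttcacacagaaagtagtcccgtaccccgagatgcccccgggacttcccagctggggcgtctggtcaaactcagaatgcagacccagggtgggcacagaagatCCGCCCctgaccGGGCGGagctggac
Col16a1: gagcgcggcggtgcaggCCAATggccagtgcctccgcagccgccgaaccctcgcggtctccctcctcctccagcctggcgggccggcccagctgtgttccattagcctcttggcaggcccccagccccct

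Over the 130 bases before the start, CCAAT on either strand was present in 4 of 15 windows of collagens that rose with the fibroblast score, in 3 of 14 windows of those that did not pass, and in 22.4% of all 32851 windows. GGGCGG was present in 8 of 15 and 8 of 14 windows of these groups, and in 27.3% of all windows. TATAAA was present in 1 of 15 and 2 of 14 windows, and in 6.83% of all windows. Each of the 3 motifs was found in both groups of collagens, and a match of letters says nothing of binding.

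The same collagens, among them those of vessel walls and their basement membranes, were next set against a score of 13 endothelial markers such as Pecam1 and Cdh5. This score moved with the fibroblast score: the difference between them had an SD of 0.48, with each score scaled to an SD of 1. Of the 31 collagens 15 rose with the endothelial score and 0 fell, against 10.8% of all tested genes that rose and 12.5% that fell. The median slope was 0.21 over the collagens and -0.02 over all tested genes. Col3a1 had the steepest slope, 0.81 ± 0.09 (SE, adjusted p = 5.98e-08), followed by Col14a1 with 0.71 ± 0.07 (adjusted p = 4.73e-09) and Col15a1 with 0.62 ± 0.08 (adjusted p = 3.57e-07). Col4a1 and Col4a2 had slopes of 0.43 each, and Col4a5 and Col4a6 had 0.02 and 0.03 and did not pass. Col8a2 was the only gene that rose with the fibroblast score and did not pass here, with an adjusted p of 0.0578, and that difference was not tested.

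With both scores in 1 model, 6 collagens rose with the fibroblast score at a fixed endothelial score and 0 fell, against 0.199% of all tested genes that rose and 0.00736% that fell. They were Col1a1 with a slope of 0.85 ± 0.14 (SE, adjusted p = 0.00193), Col3a1 with 0.84 ± 0.12 (adjusted p = 0.00093), Col1a2 with 0.76 ± 0.13 (adjusted p = 0.00256), Col5a1, Col5a2 and Col6a1. The count was 3 without animal 3273, against 0.14% of all tested genes that rose in that fit, and 3 without animal 4036, against 0.147%. Within either depth class 0 collagens rose, against 0% of all tested genes. Over all tumours 14 collagens rose in this fit and 0 fell at an unadjusted p under 0.05. In the reverse fit 0 collagens passed in limma, against 0.397% of all tested genes that rose with the endothelial score at a fixed fibroblast score and 0.243% that fell. At an unadjusted p under 0.05 there were 5 that rose and 3 that fell. The shares just given are for the adjusted level and are no background for these counts. The slope largest in size was that of Col25a1, at -0.76 ± 0.28 (SE, adjusted p = 0.161), and the other two that fell at that unadjusted level were Col9a3, with -0.32 ± 0.14, and Col4a5, with -0.30 ± 0.11 (adjusted p = 0.254 and 0.162). The highest slopes there were 0.48 ± 0.16 for Col15a1, 0.44 ± 0.17 for Col4a2 and 0.42 ± 0.16 for Col4a1, with adjusted p of 0.138, 0.175 and 0.173. On the endothelial score alone, Col25a1, Col9a3 and Col4a5 had slopes of -0.04, -0.06 and 0.02. On the fibroblast score at a fixed endothelial score they had 0.82, 0.29 and 0.36, and none passed in either fit.

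Fat, muscle and dividing cells could also move with the collagens, and their markers were scored in the same way. With the adipocyte score 9 collagens rose and 0 fell, against 6.96% and 1.88% of all tested genes. The steepest were Col3a1 with 0.63 ± 0.13 (SE, adjusted p = 0.000968), Col14a1 with 0.51 ± 0.11 (adjusted p = 0.00224) and Col15a1 with 0.46 ± 0.11 (adjusted p = 0.00337). The count was 4 without animal 4036, which had the highest adipocyte score, against 4.92% of all tested genes that rose in that fit, and 0 without animals 4036 and 3273, against 3.18%. Within the deep libraries 2 collagens rose, against 1.32% of all tested genes, and within the shallow libraries 1, against 4.36%.

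No collagen passed with the skeletal muscle score in limma, against 2.06% of all tested genes that rose and 0.176% that fell. At an unadjusted p under 0.05, 1 rose. Within the 16 shallow libraries 5 of the 31 collagens rose with that score, against 3.87% of all tested genes. Without animal 4036 the count was 1, against 4.44%.

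With a score of 29 proliferation genes such as Mki67, 9 collagens fell and 0 rose, against 6.61% and 8.86% of all tested genes. The steepest were Col11a1 with -0.49 ± 0.15 (SE, adjusted p = 0.0226), Col3a1 with -0.47 ± 0.15 (adjusted p = 0.0298) and Col14a1 with -0.41 ± 0.12 (adjusted p = 0.0231). This relation rested on few animals: the count was 0 without animal 4036, 3 without animal 4438 and 5 without animal 4547, against 2.82%, 4.39% and 5.48% of all tested genes that fell in those fits. It was 2 within the deep libraries and 0 within the shallow ones, against 0.317% and 0.655%.

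The basal epithelial score was made of 8 markers such as Krt5 and Krt14 and addresses the collagens that basal cells are known to make. In limma 0 collagens passed, against 0.39% of all tested genes that rose and 0.367% that fell. At an unadjusted p under 0.05 there were 4 that rose and 1 that fell, counts for which the adjusted shares are no background. Col17a1 had a slope of 0.24 ± 0.07 (SE, adjusted p = 0.0853), Col18a1 0.27 ± 0.08 (adjusted p = 0.0905) and Col7a1 0.20 ± 0.08 (adjusted p = 0.177). The gene with the lowest slope was Col11a2, at -0.19 ± 0.08 (adjusted p = 0.217).

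Mean insert size of the library was tested as a technical measure. No collagen passed with it in limma, against 0.0147% of all tested genes that rose and 0.0147% that fell, and at an unadjusted p under 0.05 there were 0 as well. With depth class in the model, 1 of the 31 collagens fell with insert size, against 2.95% of all tested genes.

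Genes that modify, fold, cut, cross-link, bind and degrade collagen were read from a list of 71 genes, of which 63 had a mean of at least 1 RPKM. With the fibroblast score 33 of these 63 rose and 0 fell, against 8.99% of all tested genes that rose and 7.78% that fell, and their median slope was 0.20, beside -0.02 over all tested genes. Inside the cell, 2 of 13 genes of chain modification rose, the prolyl hydroxylases P3h1 with 0.29 ± 0.05 (SE, adjusted p = 3.19e-05) and P4ha3 with 0.22 ± 0.06 (adjusted p = 0.00787). Of 6 genes of folding and export 2 rose, the chaperones Fkbp10 with 0.29 ± 0.05 and Serpinh1 with 0.38 ± 0.09.

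The genes that act outside the cell followed by step. Of 6 genes of propeptide removal 4 rose, led by the proteinase enhancer Pcolce with 0.48 ± 0.05 and the proteinase Adamts2 with 0.48 ± 0.05. Of 4 cross-linking enzymes 3 rose, led by Loxl1 with 0.60 ± 0.06 and Lox with 0.63 ± 0.07. Of 5 collagen-degrading proteinases 3 rose, led by Mmp2 with 0.63 ± 0.06 and Ctsk with 0.42 ± 0.06. Of 10 receptors and uptake genes 7 rose, led by Antxr1 with 0.46 ± 0.04 and the discoidin receptor Ddr2 with 0.46 ± 0.06. Ddr1, the discoidin receptor of epithelial cells, had a slope of -0.03 and did not pass.

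Of 15 basement membrane partners 10 rose, led by the collagen-binding protein Sparc with 0.54 ± 0.05 and nidogen Nid1 with 0.66 ± 0.07. The chain genes of epithelial laminins Lama3 and Lama5 had slopes of 0.14 and 0.15 and did not pass. Of 4 inducers 2 rose, the growth factors Tgfb1 with 0.15 ± 0.04 and Tgfb3 with 0.23 ± 0.07 (adjusted p = 0.0133 and 0.0143). With the endothelial score 31 of the same 63 genes rose and 0 fell, against 10.8% and 12.5% of all tested genes. With the basal score 1 of 63 rose, the matricellular gene Ccn2, and 0 fell, against 0.39% and 0.367%. With the proliferation score 13 of 63 fell and 1 rose, against 6.61% and 8.86%.

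The genes whose pattern was most like that of a collagen were read from Pearson's r on log2(RPKM + 1) over the 30 tumours, given as a description, since the values share libraries, depth and tissue make-up. For Col1a1 the nearest genes outside the family were Cdh11, a cadherin of mesenchymal cells, with r of 0.88, C1qtnf6 with 0.87, Spon1 with 0.86, Sparc with 0.86 and the fibroblast marker Bgn with 0.86. The 6 genes nearest to Col1a1 of all were collagens, with Col1a2 at 0.98. For Col4a1 the nearest outside genes were the basement membrane proteoglycan Hspg2 with 0.88, the pericyte receptor Pdgfrb with 0.87, Dpysl3 with 0.87, the laminin chain Lamc1 with 0.86 and Sipa1l2 with 0.85. Without animal 4036 each of these 10 values was between 0.77 and 0.85.

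For Col17a1 the nearest genes were of another kind. They were the homeobox gene Irx4 with 0.85, the laminin chain Lama3, which joins Col17a1 in hemidesmosomes, with 0.77, the epithelial transcription factor Klf4 with 0.73, Efnb1 with 0.71 and the keratin Krt6a with 0.70. For Irx4 the value was 0.92 within the 14 deep libraries and 0.54 within the 16 shallow ones. For Lama3, Klf4, Efnb1 and Krt6a it was between 0.81 and 0.91 within the deep libraries. Within the shallow libraries it was between 0.435 and 0.517 for these genes. The nearest collagen was Col7a1, with 0.42, at rank 400 among all genes. For Col7a1 the value was 0.61 within the deep libraries and -0.06 within the shallow ones.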

How the data were processed

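The authors deposited 1 table of RPKM values for 27902 RefSeq transcripts in 30 tumours, that is, read numbers already scaled to transcript length and library size. The unit is not named in the sources used here and was inferred: low values times transcript length fell on steps particular to each column, with 72.6 to 84.9% within 0.12 of a whole read against 24% by chance, too few to rebuild counts. Per the submitters' processing notes CASAVA 1.7.0 was used. Genome build and annotation: not given in the sources used here.

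Names came from RefSeq genes of GRCm38.p6 for 27161 transcripts and from GENCODE vM21 for 159. The 582 without a name, with 1.61% of the summed RPKM, and 911 small RNA transcripts were left out. Genes averaging 1 RPKM or more were tested on the log2(RPKM + 1) scale, on which changes of low genes look smaller. A marker score averaged the standardised values of its list and was scaled to an SD of 1, and the list's own genes were not tested against it. Each gene was fitted with limma 3.58.1 in R 4.3.3 (trend, two-sided), and p-values were adjusted by Benjamini-Hochberg over the genes tested, with calls at 0.05. In simulated data on 13614 genes, a score was drawn at random and noise was independent between genes. Slopes of 0.3 in size were given to 100 genes and slopes of 0.15 to 100 others. Of these 82% and 34% were recovered, with 6 false calls. The fibroblast score itself was not simulated, and its genes vary together, so recovery in that comparison can differ. Other values used Python 3.11.15, numpy 2.4.6 and pandas 2.3.3, and plots matplotlib 3.10.9.

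The members, lists and tests were chosen with earlier results of these data known. Every member is given by its level, the 3 with the highest mean in each class in full, and in each comparison the 3 largest slopes in each direction among members past the threshold. For Col1a1, Col4a1 and Col17a1 the 5 genes with the highest r were named, and of each list of collagen-handling genes the 2 with the smallest p. A few others were named after their values were seen. Alternatives were another pseudocount, other minimum levels, quantile normalization, a score from ranks, sums over transcripts, insert size or depth class as covariates, either depth class alone, and leaving out each tumour or the 2 farthest.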

Additional observations from a re-analysis of the deposited data

How the results depend on the processing

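The counts of collagens related to the fibroblast score (16) stayed between 12 and 18 under every alternative run. Those related to the endothelial score (15) stayed between 14 and 18. In deep libraries they were 12 and 14, against 3.48% and 3.95% of all tested genes that rose. With no minimum level both were 18, against 8.44% and 10.2%, and members under 1 RPKM entered too. Leaving out each animal gave 15 to 16 and 14 to 16, against 7.19 to 9.6% and 8.85 to 11.2% of all tested genes. The 0 counts for the basal score and for the endothelial score at a fixed fibroblast score stayed at 0 under every alternative and animal left out. The adipocyte count of 9 became 2 in deep libraries, 1 in shallow libraries and 0 without the 2 farthest animals, 4036 and 3273, and ran between 4 and 10 with each animal left out. The proliferation count of 9 became 2, 0 and 0 in the same settings, the farthest animals being 4036 and 4459, and ran between 0 and 13. The muscle count of 0 became 5 in shallow libraries and ran between 0 and 1. The count of 6 for the fibroblast score at a fixed endothelial score became 1 with scores from ranks, 3 with depth class as covariate, 0 in deep libraries, 0 in shallow libraries and 1 without the farthest animals 4036 and 4438, and ran between 3 and 7. The count of 20 that differed in slope from Col1a1 became 13 with a minimum mean of 5 RPKM, where fewer genes were tested, and 31 with no minimum, where more were, and ran between 17 and 21. The insert size count of 0 became 1 with depth class as covariate and stayed at 0 with each animal left out. Where no construction is named, the cause was not tested. Of the named slopes under the alternatives, 180 kept direction and call and 27 kept direction but not the call, and 562 and 8 did so with 1 animal left out; 0 reversed. No paired analysis was possible because all tumours form 1 group. Low members are limited by depth: 11 had a mean under 1 RPKM, and shallow libraries resolve them less.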

Other observations

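For 2 collagens, chosen after their values were seen, many of the 20 genes with the most similar pattern over all tumours lay on the same chromosome. Col11a2, which lies in the major histocompatibility region of chromosome 17, had 14 of its 20 nearest genes by Pearson's r on that chromosome, which holds 5.41% of the tested genes. They included Nfkbie with r of 0.84, Pgc with 0.82 and H2-Oa with 0.82, and among the others were Ltb, Lta, Tnf, Aif1 and Lst1. The count was 13 without animal 4036, 7 within the deep libraries and 7 within the shallow ones. Col11a2 itself ran between 7.61 RPKM in animal 4016 and 30.1 RPKM in animal 4378.

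Col23a1, on chromosome 11, had 10 of its 20 nearest genes on that chromosome, which holds 8.8% of the tested genes. The first were Lyrm7 with r of 0.84, the transporter gene Slc22a4 with 0.79 and Scgb3a1 with 0.71. The count was 8 without animal 4036, 9 within the deep libraries and 5 within the shallow ones. For the other 29 tested collagens between 0 and 5 of the 20 nearest genes were on the collagen's own chromosome. Whether related genes such as Slc22a4 and Slc22a21 share reads was not tested.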
